A study of Ovis aries with 14 samples.

Results

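Lungs of lambs (Ovis aries) at term were compared with the lungs of all unsupported fetuses in the series, which makes 8 of its 14 libraries. The 8 were chosen by their group labels alone: 2 term libraries (titled replicates 2 and 3, labelled gd150), 3 fetal start libraries (labelled gd127, gd128 and gd131) and 3 fetal end libraries (labelled gd135, gd134 and gd136). All 8 animals carry the treatment label none, and no genotype, breed or sex is given for them. Whether the term lambs were sampled before or after birth is not in the labels, so effects of age and of birth cannot be told apart here. The other 6 libraries are preterm lambs supported for 3 days by invasive mechanical ventilation (IMV, by airway tube) or noninvasive respiratory support (NRS). They entered the statistical fit, and their levels are given beside the term and fetal values of some genes without a test. Each library is total RNA of the right lower lung lobe of 1 animal with its own identifier, so replicates are separate lambs. The age label and the number inside the animal identifier disagree for fetal end replicates 1 and 2, which leaves their group unchanged.

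Late in gestation the lung changes from a liquid-secreting organ with thick septa into one that can exchange gas. Septa thin, capillaries come to lie against the epithelium, alveolar type II cells store and release surfactant, and the epithelium turns from secreting to absorbing liquid. In sheep, as in other mammals, the rise of fetal cortisol before birth accompanies these steps, which is why lambs delivered before them serve as a model of preterm birth. The deposited table names genes by Ensembl identifier only. No identifier could be paired with a symbol, a position or a sequence, so the markers of surfactant, endothelial, immune and muscle cells could not be looked up and the tissue label was not checked against them. Genes are therefore described here by how they behave across animals. Each library is a mixture of cells, in which fewer cells of a type and less RNA per cell cannot be told apart.

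Between 24817865 and 29442928 counts were assigned to genes in each of the 8 libraries. No library repeated another of its group, since chi-square per degree of freedom between animals of a group ran from 26.55 to 83.86. Levels are given as CPM, the usual library-size normalised count, on TMM-scaled totals. A gene is called where the edgeR quasi-likelihood test gave a Benjamini-Hochberg adjusted p under 0.05 over the 17069 genes tested. Fold changes compare term with the average of the fetal start and fetal end means on the log2 scale.

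The term lungs stood apart from all 6 fetal lungs on the first principal component of log2 CPM over the 8 libraries, which held 36.9% of the variance. Term scores were 77.1 and 62.5, and fetal scores ran from -51.7 to -2.62. The means differed by 93.1 (exact permutation test, two-sided, p = 0.0714, which is the lowest value possible for 2 animals against 6). The fetal lungs did not line up by labelled age. Fetal start replicate 3, labelled gd131, scored -2.62 and lay nearest to term, beside fetal end replicate 1 at -3.40. The other fetal start animals scored -41.8 and -51.7, and the other fetal end animals -15.1 and -25.1. The groups overlapped on this component, with means of -32.0 ± 25.95 at fetal start and -14.5 ± 10.85 at fetal end (SD, n = 3 each).

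**Figure D1:**
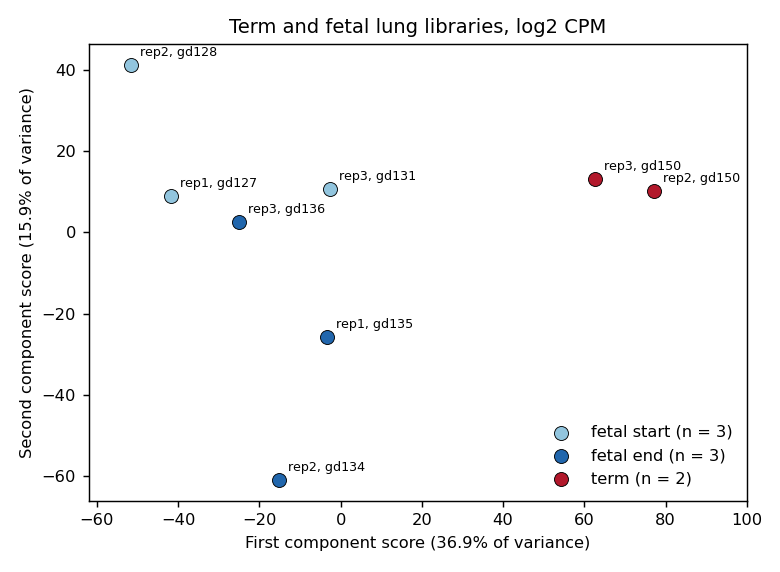
Scores of the 8 term and fetal libraries on the first component (horizontal axis, 36.9% of the variance) and the second component (vertical axis, 15.9%) of log2 CPM; each point is 1 lamb, coloured by group and labelled with its replicate and gestational day. The 2 term lambs lie at 62.5 and 77.1 on the horizontal axis and all 6 fetal lambs at or below -2.62.

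At term 1453 genes were higher than in the fetal lungs and 894 were lower, which is 8.51% and 5.24% of the genes tested. The changes were mostly modest. The median log2 fold change was 0.77 among the genes that rose (quartiles 0.49 to 1.52), a 1.70-fold rise, and -0.80 among those that fell (quartiles -1.34 to -0.57), a 1.75-fold fall. The median over all genes tested was -0.01. Changes of 2-fold or more were found for 565 genes that rose and 355 that fell, changes of 4-fold or more for 243 and 91, and changes of 16-fold or more for 33 and 14. The count rests on both term animals. It was 404 without term replicate 2 (290 higher, 114 lower) and 965 without term replicate 3 (801 higher, 164 lower), and it ran from 1760 to 3017 when any 1 fetal library was left out.

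**Figure D2:**
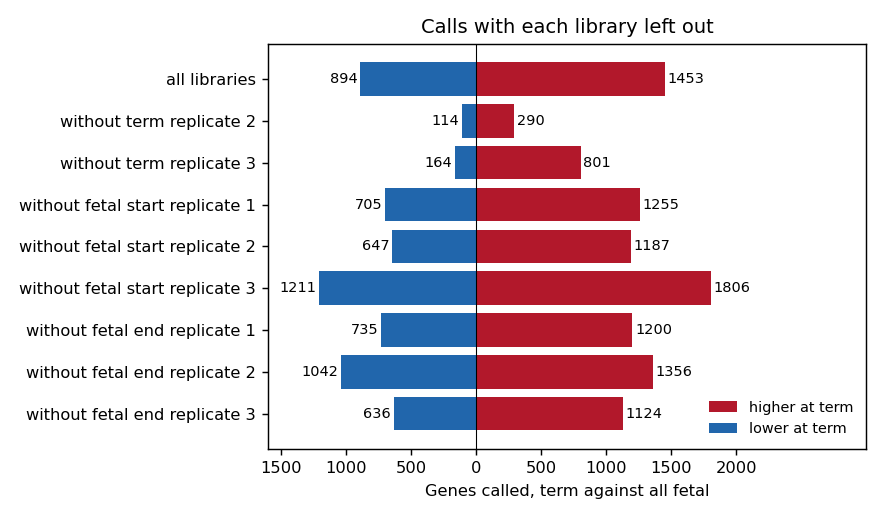
Number of genes called higher (red, to the right of 0) and lower (blue, to the left of 0) at term against all fetal lungs, with all libraries and with each of the 8 term and fetal libraries left out. The counts fell most without term replicate 2 (290 and 114) and were highest without fetal start replicate 3 (1806 and 1211).

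Well expressed genes were called more often, with smaller changes. Among the 1474 genes with a mean of 7 log2 CPM or more over all 14 libraries, 151 rose and 103 fell (10.24% and 6.99%), with medians of 0.52 and 0.59 on the log2 scale in size. Among the 3796 genes with a mean under 1 log2 CPM, 164 rose and 96 fell (4.32% and 2.53%), with medians of 2.51 and 2.11. In the classes between them, 379 rose and 279 fell of 4619 genes with means from 1 to 4, and 759 rose and 416 fell of 7180 with means from 4 to 7. Genes that rose held 13.4% and 11.9% of the counts in the term libraries and 6.50% to 8.30% in the fetal ones. Genes that fell held 4.58% and 4.67% at term and 6.87% to 8.31% in fetal lungs. These shares describe the genes that the test had picked on the same libraries.

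**Figure D3:**
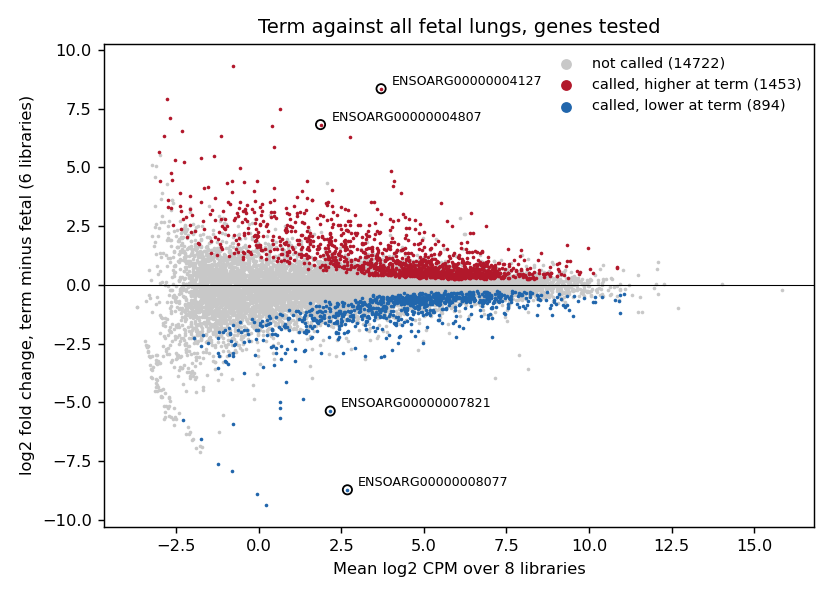
Log2 fold change of term against all 6 fetal libraries (vertical axis) by mean log2 CPM over the 8 libraries (horizontal axis), 1 point per gene tested; red points are the 1453 genes called higher at term, blue points the 894 called lower, grey points the rest, and circles mark the 4 genes described in detail. Called genes at high abundance lie close to 0 and those at low abundance spread widely.

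The ranges of the groups separated for most of the called genes. Of the 1453 genes that rose, 1351 had both term animals above every fetal animal, where 2652 of all genes tested (15.5%) did. Of the 894 that fell, 862 had both term animals below every fetal animal, where 2307 of all genes tested (13.5%) did. A gap of 2-fold or more between the nearest term and fetal animals was rarer: it held for 137 of the genes that rose (9.43%), where 143 of all genes tested (0.838%) had one upward, and for 69 of those that fell (7.72%), where 81 of all genes tested (0.475%) had one downward. The remaining 102 genes that rose and 32 that fell overlapped in at least 1 animal and were called on their means. The genes had been called on these same term and fetal libraries, so the shares among them are a description.

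Against each fetal age alone, with the same 2 term libraries, 1221 genes were higher and 866 lower than at fetal start (7.15% and 5.07% of the genes tested), and 648 were higher and 356 lower than at fetal end (3.8% and 2.09%). The 1453 genes that rose had a median log2 fold change of 0.81 against fetal start and 0.71 against fetal end, beside 0.00 and -0.01 over all genes tested. The 894 genes that fell had medians of -0.87 and -0.75. Between the fetal ages themselves, fetal end minus fetal start, the same lists had medians of 0.09 and -0.11, where all genes tested had 0.00. Both lists were picked for their term difference, so these medians only describe them. The count against fetal start was 399 without term replicate 2, 862 without term replicate 3, 1271 without fetal start replicate 1 and 726 without fetal start replicate 2. The count against fetal end was 44 and 521 without term replicates 2 and 3, and 265 and 114 without fetal end replicates 1 and 3. Without fetal end replicate 2 it was 844, and the balance of directions turned, with 410 genes higher and 434 lower.

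Single fetal animals differed in how near they came to the term level. Each fetal library was set against the mean of the other fetal libraries over the 1453 genes that rose. Fetal end replicate 1, fetal start replicate 3 and fetal end replicate 2 had medians of 0.12, 0.10 and 0.08 (log2), and fetal start replicate 2, labelled gd128, was lowest at -0.23. The term libraries stood at 0.82 (replicate 2) and 0.67 (replicate 3) above the fetal mean. The highest fetal level was found in fetal start replicate 3 for 399 of these genes (27.5%, against 17.0% of all genes tested) and in fetal end replicate 1 for 370 (25.5%, against 14.8%). It was found in fetal start replicate 2 for 79 (5.44%, against 20.5%). For the genes that fell, the lowest fetal level lay in fetal end replicate 1 for 242 of 894 (27.1%, against 13.9%), in fetal start replicate 3 for 219 (24.5%, against 16.4%) and in fetal start replicate 1 for 50 (5.59%, against 15.1%). The lists were chosen with these same libraries, so the shares are a description. The oldest fetus, fetal end replicate 3 at gd136, was not the nearest to term, with medians of -0.02 over the higher list and 0.01 over the lower list.

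The term animals also differed from each other. Of the genes that rose, 957 of 1453 (65.9%) were higher in term replicate 2 than in replicate 3, where 50.9% of all genes tested were, and 265 (18.2%) differed by over 2-fold between them, where 10.4% of all genes did. Of the genes that fell, 463 of 894 (51.8%) were higher in replicate 2 and 30 (3.36%) differed by over 2-fold. The 10 largest rises among genes whose mean level was 1 log2 CPM or more and whose term and fetal ranges did not meet spanned 15.3-fold to 327.5-fold. All 10 were higher in term replicate 2, by 2.35-fold to 9.48-fold over replicate 3, and fetal start replicate 3 had the highest fetal level for 9 of them. The 10 largest falls by the same rule spanned 7.14-fold to 424.6-fold, and term replicate 2 was the higher animal for 5 of them. Of the 10 falls, 9 were also called against fetal start alone but only 2 against fetal end alone. Of all genes tested, 5.07% and 2.09% were called lower in these comparisons. Of the 10 rises, 9 and 10 were called, where 7.15% and 3.8% of all genes tested were called higher. The rises and falls had been picked on these same libraries, so these counts are a description.

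Of these, the 2 largest in each direction are described in full. ENSOARG00000004127 stood at 2640 and 391.7 CPM in term replicates 2 and 3. Fetal start animals had 1.67, 0.663 and 16.2 CPM, and fetal end animals 5.09, 2.46 and 2.85 CPM. Both term animals lay far above all fetal ones, but they were themselves several-fold apart, and fetal start replicate 3 was the highest fetus. Term exceeded the fetal average by 8.36 ± 1.34 on the log2 scale (SE, edgeR adjusted p = 0.00376). The difference was 6.41 without term replicate 2, 9.16 without term replicate 3 and 9.55 without fetal start replicate 3, and the gene was called in each of these.

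ENSOARG00000004807 had 254.8 and 70.8 CPM at term. Its fetal levels were 0.254, 0.552 and 2.59 CPM at fetal start and 3.09, 1.85 and 0.455 CPM at fetal end. The fetal groups overlapped each other, and the lower term animal, at 70.8 CPM, was far above the highest fetus, at 3.09 CPM. The log2 difference from the fetal average was 6.83 ± 0.65 (SE, edgeR adjusted p = 0.000495), with 7.17 against fetal start (edgeR adjusted p = 0.00308) and 6.48 against fetal end (edgeR adjusted p = 0.00945). Leaving out term replicate 2 gave 5.63, term replicate 3 gave 7.47 and fetal start replicate 3 gave 7.56, all with an adjusted p under 0.05 in edgeR.

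ENSOARG00000008077 was present in every fetus and nearly absent at term. It had 1 and 2 counts in the term libraries (0.0346 and 0.0701 CPM) and 549 to 904 counts in the fetal ones, at 21.0, 25 and 20.8 CPM at fetal start and 20.7, 32.75 and 24.8 CPM at fetal end. The ratio of summed counts, fetal over term, was 463.7, and its exact 95% interval, for counting error alone, ran from 158.6 to 2250 (edgeR adjusted p = 0.0231). The call was lost without term replicate 2 (edgeR adjusted p = 0.161) or term replicate 3 (edgeR adjusted p = 0.131). The gene was not a steady feature of preterm lungs, since IMV animals had 1, 503 and 1 counts while NRS animals had 455, 356 and 530.

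ENSOARG00000007821 fell to 0.173 and 0.350 CPM at term. It stood at 17.7, 29.5 and 16.9 CPM at fetal start and at 4.45, 4.78 and 7.85 CPM at fetal end, so that the fetal groups did not overlap with each other either. Against all fetal lungs the log2 difference was -5.37 ± 1.25 (SE, edgeR adjusted p = 0.0176). Against fetal start it was -6.33 (edgeR adjusted p = 0.0134) and against fetal end -4.42, which did not pass (edgeR adjusted p = 0.0580). Fetal end minus fetal start was -1.91 and did not pass either (edgeR adjusted p = 0.629). The call against all fetal lungs was lost without term replicate 2 (edgeR adjusted p = 0.141) or term replicate 3 (edgeR adjusted p = 0.0950).

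**Figure D4:**
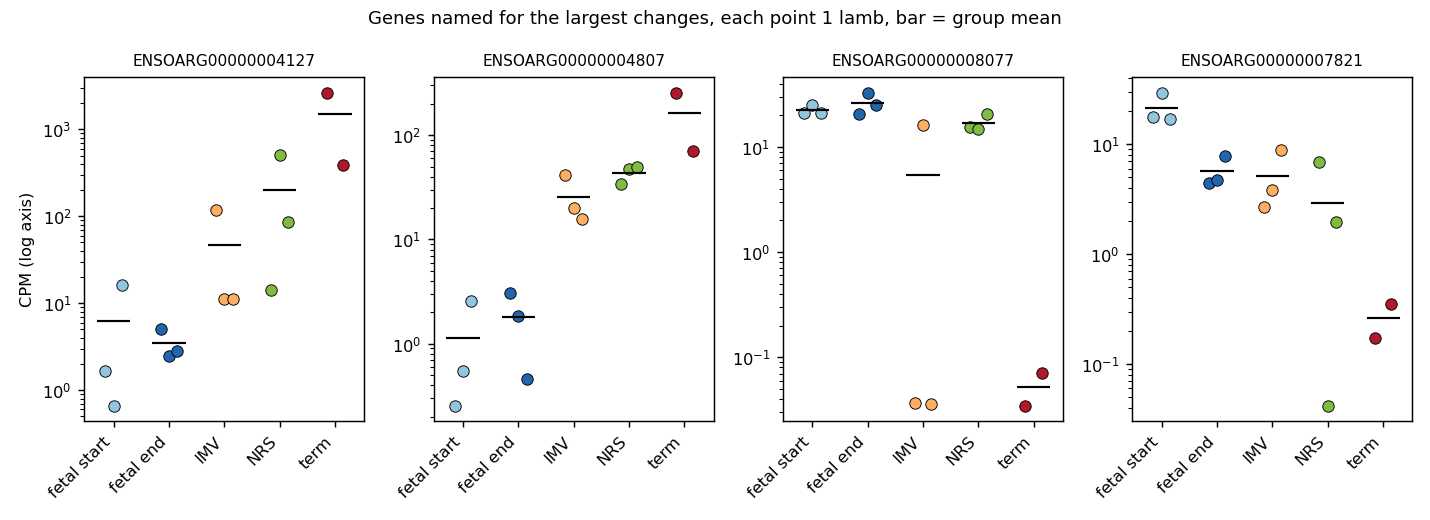
CPM on a log axis of the 4 genes described in detail, in all 14 libraries; each point is 1 lamb and each bar the mean of its group. Term points lie above all fetal points for ENSOARG00000004127 and ENSOARG00000004807 and below them for ENSOARG00000008077 and ENSOARG00000007821. Supported lambs all lie between the term and fetal points for ENSOARG00000004807. For each of the other genes some lie between and some within or beyond the term or fetal range.

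A few genes were close to undetected on 1 side at this depth. These were picked after their values were seen, as genes with at most 3 counts over a whole group and at least 10 in every animal of the other. Detected at term and not, or barely, in fetuses were 4 genes, all at low levels. ENSOARG00000003346 had 43 and 21 counts at term and 0 in all 6 fetuses, which is at least 59.3-fold higher against a floor of 3 counts over the fetal group. ENSOARG00000008828 had 20 and 49 counts at term against 1 in all fetuses together, a ratio of 191.8 (exact 95% interval 33.3 to 7682). ENSOARG00000009284 had 10 and 31 against 1, a ratio of 113.9 (19.3 to 4609), and ENSOARG00000002196 had 11 and 10 against 2, a ratio of 29.2 (7.13 to 256.7). All 4 were called with edgeR adjusted p from 0.00385 to 0.0176, and each had at least 1 count in every supported lamb. ENSOARG00000002196 had 40 to 159 counts in NRS animals, above both term lambs, and 5 to 43 in IMV animals. The highest NRS animal also exceeded both term lambs for ENSOARG00000003346 and for ENSOARG00000008828 (69 counts). For ENSOARG00000009284 it did not (27 counts). IMV animals had 5 to 15, 3 to 16 and 1 to 8 counts of these genes, below both term lambs. The call of ENSOARG00000002196 was lost without either term library and that of ENSOARG00000003346 without term replicate 2 (edgeR adjusted p up to 0.0979).

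The reverse held for 3 genes, 1 of them ENSOARG00000008077. ENSOARG00000001143 had 0 counts at term and 45 to 92 in each fetus, at 2.23 ± 0.57 CPM (SD, n = 6), which is at least 42.8-fold lower at term (edgeR adjusted p = 0.0070). ENSOARG00000009526 had 0 counts at term and at least 52 in each fetus, at 3.03 ± 1.12 CPM (SD, n = 6), at least 58.4-fold lower (edgeR adjusted p = 0.0338). The bounds use the floor of 3 counts over the term group and cover counting error only. Among IMV animals ENSOARG00000009526 ranged from 0 to 96 counts and ENSOARG00000001143 from 3 to 43, against 46 to 87 and 32 to 37 among NRS animals. The call of ENSOARG00000001143 was lost without term replicate 2 (edgeR adjusted p = 0.0641). That of ENSOARG00000009526 was lost without either term library, fetal start replicate 2 or fetal end replicate 3 (edgeR adjusted p up to 0.171).

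Animal identifiers ended in 18 for both term lambs, in 17, 18 and 18 for fetal start replicates 1 to 3, and in 19 for all fetal end lambs. The labels do not say what this suffix stands for. With the suffix held at 18, which leaves 2 term and 2 fetal start animals, 2 of 15874 genes were called (0.0126%), and 3046 had an unadjusted p under 0.05. That fit had only 2 residual degrees of freedom. With the same 4 animals and the spread taken from all 14 libraries, a test chosen after the data had been seen, 770 genes were higher and 510 lower, 7.5% of the 17069 tested. In the fit of 4 animals the genes called against all fetal lungs had medians of 0.81 (higher list) and -0.84 (lower list) on the log2 scale, about as large as with all 6 fetal lungs, beside 0.01 over all genes. Those animals had helped to choose the lists.

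The 2 genes called in that fit of 4 were picked after their values were seen. ENSOARG00000008077 was one of them (edgeR adjusted p = 0.0351). The other, ENSOARG00000004877, had 925 and 1374 counts at term (32.0 and 48.1 CPM) and 6 to 14 counts in each of the 6 fetuses, at 0.369 ± 0.106 CPM (SD, n = 6). Its ratio of summed counts against all fetuses was 108.3 (exact 95% interval 83.6 to 142.7, counting error only). Its edgeR adjusted p was 0.0424 among the 4 animals and 0.0222 against all fetal lungs. With the same 4 animals and the spread taken from all 14 libraries, this gene was not called (edgeR adjusted p = 0.150). In that test ENSOARG00000008077 only just passed (edgeR adjusted p = 0.0497). DESeq2 gave no adjusted p for ENSOARG00000004877. Supported lambs ranged from 9 to 1322 counts, in both IMV (9 to 1288) and NRS (9 to 1322), so this gene was near the fetal level in some animals of each group and near the term level in others. Its call against all fetal lungs was lost without either term library, fetal start replicate 2 or fetal end replicate 3 (edgeR adjusted p up to 0.0785).

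Comparisons with no library in common gave the same direction for most called genes. In term replicate 2 against the 3 fetal start animals, 891 genes were called (5.22%), 711 higher and 180 lower. In term replicate 3 against the 3 fetal end animals, 647 of those 711 genes (91.0%) had a positive log2 fold change, where 47.2% of all genes tested did, with a median of 0.55. Of the 180 lower genes, 176 (97.8%) had a negative one, with a median of -0.57. Read the other way, 43 genes were called in term replicate 3 against fetal end (0.252%), 32 higher and 11 lower. Of these, 29 and 11 had the same sign in term replicate 2 against fetal start, with medians of 1.04 and -0.69. Pearson's r between the comparisons was 0.466 across 17069 genes, which are not independent replicates and share 1 scaling of the libraries. With 1 term library on each side, its spread was assumed to be that of the other groups. All libraries of the series entered the fit behind these calls. The fetal libraries of each comparison therefore helped to set the spread used in the other, and the comparisons are not fully independent.

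**Figure D5:**
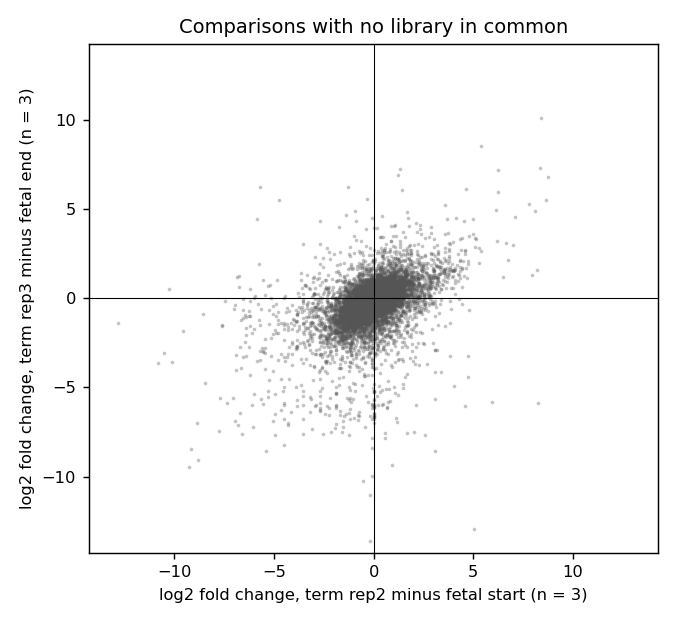
Log2 fold change of term replicate 2 against 3 fetal start libraries (horizontal axis) and of term replicate 3 against 3 fetal end libraries (vertical axis), 1 point per gene tested, with no library in common. Points with large positive values on 1 axis lie mostly at positive values on the other (Pearson's r = 0.466 across genes).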

How the data were processed

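The authors deposited raw counts for Ensembl genes in 1 table, with a column for each of the 14 lambs. All columns hold whole numbers, so no deposited column, the 6 fetal ones included, is an expected count or estimated count. Build Oar_v3.1 and the tools STAR 2.7.0f, featureCounts 1.6.3, Subread, cutadapt 1.16, DESeq2 1.22.2 and bcl2fastq are listed in the submitters' processing notes, without roles. The strand setting is not given in the sources used here, nor is the annotation release, so counts of overlapping, antisense or near-identical genes are uncertain.

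Groups came from the sample titles. Counts were tested with edgeR 4.0.16 in R 4.3.3 (TMM, filterByExpr with a count minimum of 10, quasi-likelihood F test, Benjamini-Hochberg adjustment over all genes tested). All 14 libraries entered 1 fit with 5 group means and 9 residual degrees of freedom, in which the biological coefficient of variation was 26.0%. The filter kept 17069 of 27054 genes, with 99.97% of the counts. The term contrast weights the 6 fetal libraries equally. A standard error is the log2 fold change over the square root of F. Log2 CPM adds a prior count of 2.

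The reference table (ARS-UI_Ramb_v3.0) carries 0 Ensembl identifiers in 35057 rows, so 0 genes matched a symbol, and the 20 lists of 133 marker and pathway symbols could not be used. Genes named in detail are the 2 largest changes in each direction among called genes with a mean of at least 1 log2 CPM over the 8 libraries and no overlap between term and fetal animals. The comparison and its rules were chosen with earlier results of these data known.

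On simulated counts (16803 genes, term against all fetal) the procedure recovered 50% of 100 changes of 2-fold and 77% of 100 changes of 4-fold. Of 132 genes called there, 5 were false. Those counts were drawn from the model and spread that edgeR had fitted, and only the term group was given changes. The simulation therefore cannot give the error rate of the calls in the real data. Other settings tried were RLE scaling, DESeq2 1.42.0, no filter, fits of the 8 libraries, the replicate number as a block, the identifier suffix as a covariate and each library left out. The suffix 18 fit with pooled spread and the comparisons without common libraries were added after seeing the data.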

Additional observations from a re-analysis of the deposited data

Results flagged for a closer look

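For ENSOARG00000006431 the size of the term difference depended on the fetal group it was measured from. It stood at 3.91 and 3.40 CPM at term, at 0.327, 0.368 and 0.676 CPM at fetal start and at 4.94, 3.30 and 4.38 CPM at fetal end. Term was higher than fetal start by 2.99 on the log2 scale (edgeR adjusted p = 0.00410) and lay at -0.20 against fetal end (edgeR adjusted p = 0.770). The difference between these effects, which equals fetal end minus fetal start, was 3.19 (edgeR adjusted p = 0.0422), and this was the single gene of 17069 for which it passed. Against the average of all fetal lungs it was nevertheless called, at 1.39 (edgeR adjusted p = 0.0184). That call was lost without either term library (edgeR adjusted p up to 0.132). No fetal end lamb shares an identifier suffix with a fetal start lamb. Effects of fetal age and of the suffix therefore cannot be told apart in the difference between the fetal groups.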

How the results depend on the processing

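The count of 2347 genes for term against all fetal lungs stayed within 1.5 times under RLE scaling, without a filter, with the replicate block (1768) and without any 1 fetal library. It was 3728 with DESeq2 (2332 shared), 1204 with only the 8 libraries in the fit and 1297 with their fetal libraries as 1 group. Tests on fewer animals, added later, gave 1280 (fetal start replicates 2 and 3), 891 and 542 (term replicate 2 against fetal start and fetal end), 399 and 43 (term replicate 3 against the same). Leaving out 1 library gave 404 to 3017. Against fetal start (2087) the count was 3464 with DESeq2, 802 with 8 libraries and 399 to 2678 with a library left out. Against fetal end (1004) it was 2433, 86 and 44 to 844, and 450 with the replicate block. The cause of these shifts was not tested. With the suffix held at 18 the count of 2 became 1254 with DESeq2, 1 without a filter, 0 with the replicate block (2515 with an unadjusted p under 0.05) and 1 to 140 with a library left out. Genes with both term libraries beyond all fetal ones numbered 4959. With a fetal library left out they numbered 5306 to 5726, since fewer animals then have to be exceeded. With a term library left out they numbered 8201 and 8567, since only 1 term animal then has to lie beyond the fetal ones. The suffix covariate could be fitted only against fetal start, because suffix 19 occurs only at fetal end. With it 1433 genes were called against fetal start (849 higher, 584 lower), beside 2087 without it. Of 153 results for the 12 genes named, 18 lost their call, 0 changed direction and the others kept both. Same-numbered fetal start and fetal end libraries deviated with correlations of -0.07, -0.09 and -0.10, and none correlated best with its own number. Term replicate 3 correlated best with fetal end replicate 3 (0.10), and term replicate 2 with fetal start replicate 3 (0.08). With 2 or 3 animals in a group, such correlations cannot show whether replicate numbers pair animals. With 2 term animals, changes in genes with few counts limit what this depth can show.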

Other observations

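The mean CPM of the 6 supported preterm lambs, labelled gd134, fell between the fetal and the term mean for 1351 of the 1453 genes that rose at term (93.0%) and 827 of the 894 that fell (92.5%), and for 9181 of all 17069 genes tested (53.8%). It did so for 10 of the 10 largest rises and 9 of the 10 largest falls. Genes picked for a wide gap between term and fetal means leave more room between them, so these shares are a description. ENSOARG00000004807 was at 15.7 to 41.5 CPM after IMV and 33.8 to 49.3 CPM after NRS, above every fetus (at most 3.09 CPM) and below both term lambs. ENSOARG00000004127 was less uniform, at 117.5, 11.3 and 11.3 CPM after IMV and 14.1, 505.4 and 87.2 CPM after NRS. NRS replicate 2 lay within the term range and 3 supported lambs lay at or below the highest fetus (16.2 CPM). ENSOARG00000007821 was at 2.72, 3.86 and 8.95 CPM after IMV, of which the highest exceeded every fetal end lamb (at most 7.85 CPM). After NRS it was at 6.86, 0.0418 and 1.98 CPM, and NRS replicate 2 was below both term lambs. These genes were chosen on the term and fetal libraries, and the fetal libraries are the same in each of these readings. No difference between supported and other lambs was tested here.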
